A study of Mus musculus with 6 samples.

Results

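Tumor necrosis factor (TNF), the enzyme that releases it from the cell surface, its receptors and the proteins first recruited to them are encoded by 10 genes that were chosen by name for their known roles and not by a threshold on their values: Tnf, Adam17, Tnfrsf1a, Tnfrsf1b, Traf1, Traf2, Birc2, Birc3, Ripk1 and Cflar. The choice was made with earlier results of these data known, so that the counts of members below describe the list and do not test it. All 10 were found among the 54532 genes listed, and all 10 were among the 12755 genes tested. They were measured by RNA-seq in bone-marrow-derived macrophages (BMDMs), cells grown from the marrow of wild-type C57BL/6 mice in medium conditioned by L929 cells. There were 3 groups of 2 libraries. Untreated BMDMs received neither agent, the LPS group received lipopolysaccharide at 100 ng/ml for 2 h, and the Met + LPS group was kept in 5 mM metformin for 6 h before LPS was given as in the LPS group. LPS comes from the outer wall of Gram-negative bacteria and is sensed by macrophages through TLR4, and metformin is a drug for diabetes that inhibits complex I of the mitochondrial respiratory chain and activates the kinase AMPK. No group received metformin without LPS.

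TNF is made as a membrane protein that the metalloprotease ADAM17 sheds into its soluble form. It binds a receptor present on most cells (encoded by Tnfrsf1a), which carries a death domain, and a second receptor abundant on immune cells (encoded by Tnfrsf1b), which binds TRAF2 directly. At the first receptor, the kinase RIPK1, the adaptor TRAF2 and the ubiquitin ligases cIAP1 and cIAP2 (encoded by Birc2 and Birc3) build a platform from which NF-κB and MAP kinases are activated, while cFLIP, the product of Cflar, holds back caspase-8. In macrophages stimulated with LPS, Tnf is known as an early response gene, and Traf1, Birc3 and Cflar are known targets of NF-κB.

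Values are TPM, the deposited unit, which corrects for gene length and fixes the total of a library, so that levels of different genes can be compared approximately. The length matched that of all exons of a gene together and not of the transcripts expressed. Ratios and orders of levels between genes are therefore those of TPM and not of counted molecules. Differences are log2 fold changes of TPM + 1 from limma, fitted over all 12755 tested genes and all 6 libraries, with p-values adjusted over those genes. The spread between libraries gave 3 residual degrees of freedom, and with 2 libraries against 2 an exact two-sided permutation test cannot go below p = 0.333. The libraries held 25457016 to 30762755 reads on genes, and the member with the fewest reads in any library was Tnf, with 362 and 394 reads in the untreated libraries, against 101751 and 114964 in the Met + LPS libraries. The labels do not say whether the libraries of a group came from separate mice or cultures, so that the p-values measure the spread between these libraries, which may be technical. TPM are relative to the total of a library, and the median log2 fold change of all tested genes after LPS was -0.48, or -0.01 after median-ratio scaling of the libraries. In bulk RNA, fewer cells of a type and less RNA per cell cannot be told apart.

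The upstream sequences of 3 members are shown as background. Tnf is the member that responded most, and Birc3 and Birc2 are neighbors, 11634 bases apart on chromosome 9, that responded to different extents. A part in these responses was not tested for any of the 3 sequences. Each is the 250 bases before the RefSeq start site (GRCm38.p6, minus strand), written 5′ to 3′. Capitals mark TATAAA in the Tnf sequence, at positions -29 to -24 from the start site, and the cyclic AMP response element TGACGTCA in the Birc2 sequence, at -35 to -28.
Tnf, chr17:35202008-35202257: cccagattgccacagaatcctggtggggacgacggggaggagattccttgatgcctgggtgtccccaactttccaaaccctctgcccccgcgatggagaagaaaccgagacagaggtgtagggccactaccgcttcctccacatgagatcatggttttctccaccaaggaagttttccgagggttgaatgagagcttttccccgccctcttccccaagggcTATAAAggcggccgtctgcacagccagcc
Birc3, chr9:7873171-7873420: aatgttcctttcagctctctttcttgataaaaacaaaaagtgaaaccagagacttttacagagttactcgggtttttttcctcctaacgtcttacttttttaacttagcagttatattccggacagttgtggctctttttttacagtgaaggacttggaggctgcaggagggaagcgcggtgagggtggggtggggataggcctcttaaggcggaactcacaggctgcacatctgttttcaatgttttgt
Birc2, chr9:7837058-7837307: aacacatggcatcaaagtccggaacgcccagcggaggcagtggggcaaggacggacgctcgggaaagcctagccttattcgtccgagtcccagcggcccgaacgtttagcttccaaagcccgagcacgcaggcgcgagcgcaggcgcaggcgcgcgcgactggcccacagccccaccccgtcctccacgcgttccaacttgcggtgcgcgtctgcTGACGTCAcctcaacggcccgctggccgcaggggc

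Motifs were searched on both strands in windows from 250 bases before to 50 after the start site, 12 of them for the 10 genes, since Birc2 and Ripk1 have 2 each. TATAAA was found in the windows of Tnf and Cflar, and 13.6% of 32851 windows of all genes held it; in Cflar it lay over 100 bases upstream, on both strands with the matches overlapping. TGACGTCA, a palindrome, was found in 1 Birc2 window only, against 1.79% of all windows. The SP1 motif GGGCGG was present in windows of Tnf, Adam17, Tnfrsf1b, Traf2, Birc2 and Ripk1, against 35.7% of all windows. The κB consensus and the AP-1 motif TGANTCA were in none of the 12 windows, against 8.46% and 7.81% of all windows. The windows of the 10 genes also differed in CpG dinucleotides, from 4 in Traf1, 7 in Birc3 and 11 in Tnf to 28 in Traf2, 30 in Adam17, 34 in the Birc2 window that holds TGACGTCA and 36 in 1 Ripk1 window, where the median of all windows was 7 and the quartiles were 3 and 20.

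Tnf (ENSMUSG00000024401, chr17:35199381-35202007, minus strand, GRCm38) rose from a modest level to one of the most abundant transcripts of the cells. It was measured at 29.0 and 33.6 TPM in the untreated libraries, 3920 and 3914 TPM in the LPS libraries, and 8213 and 7925 TPM in the Met + LPS libraries. The 3 groups were far apart compared with the spread within each. By TPM, Tnf ranked at 4763 and 4306 among all genes in the untreated libraries, at 27 in both LPS libraries and at 12 in both Met + LPS libraries.

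After LPS the mean TPM of Tnf was 125 times the untreated mean, a log2 fold change of 6.93 (SE 0.064, adjusted p = 2.8e-09), and 27 of the 12755 tested genes rose more. With metformin before LPS it was higher again by 1.04 on the log2 scale (95% interval 0.89 to 1.20, adjusted p = 5.7e-05), or 2.06 times the LPS mean in TPM. Of 474 genes past the LPS cut-offs in the upward direction (a log2 fold change of 2 or more with an adjusted p under 0.01), 126 were lower and 18 higher with metformin at a log2 change of 0.7 or more and the same adjusted p, and Tnf was among the 18. Over all tested genes 4.09% were lower and 4.19% higher. The LPS libraries that select the 474 are also the reference for metformin, so that these 2 counts are not independent of the selection. A larger change with metformin than that of Tnf was found for 269 tested genes. Tnf shares no exon bases and no 31-base sequence with another gene. Its flanking family members were close to absent: Lta, 1157 bases away, stayed between 0 and 0.980 TPM, and Ltb, 3060 bases away, between 0.298 and 0.694 TPM in the 6 libraries.

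The Tnf transcript was also assayed by RT-qPCR in other experiments, not analysed here, with a primer pair that is given because it fixes which part of the gene was read there. On the GENCODE transcript Tnf-201, which has 4 exons, it brackets 110 bases of coding sequence. The forward primer has 15 bases in exon 1 (chr17:35201655-35201669) and 5 in exon 2 (chr17:35201134-35201138), and the reverse primer lies in exon 3 (chr17:35200866-35200885).
Forward: ccccaaagggatgagaagtt
Reverse: tgggctacaggcttgtcact

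Adam17 (ENSMUSG00000052593, chr12:21323509-21373632, minus strand) encodes the protease that sheds TNF and both of its receptors. It stood at 152 and 156 TPM in untreated BMDMs, 264 and 258 TPM after LPS, and 248 and 236 TPM in Met + LPS. LPS raised it by 0.75 on the log2 scale (SE 0.037, adjusted p = 3.6e-06), below the cut-off of 2, and by 1.28 with median-ratio scaling. Both Met + LPS libraries were below both LPS libraries, and the difference of -0.11 (95% interval -0.20 to -0.02) did not pass (adjusted p = 0.050). Exons of Adam17 overlap 311 bases of the antisense gene Iah1, and whether reads were counted by strand is not given in the sources used here.

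The ratio of Tnf to Adam17 TPM was 0.203 ± 0.017 (SD, n = 2) in untreated BMDMs, 15.0 ± 0.207 after LPS and 33.3 ± 0.303 in Met + LPS. Among the partners of the protease, a list of 4 genes of which 3 were tested, Rhbdf2, which brings ADAM17 to the cell surface, rose from 39.9 TPM in both untreated libraries to 193 and 204 TPM after LPS (log2 fold change 2.29, adjusted p = 3.0e-08). Rhbdf2 was the only one of the 3 past the LPS cut-offs, where 3.72% of the tested genes were called higher. Its relative Rhbdf1 was the only one of the 3 past the cut-offs with metformin, where 4.09% were called lower and 8.28% in either direction. Rhbdf1 was weakly expressed, and 1 TPM in 2 libraries was required for testing. It was at 1.31 and 1.44 TPM in untreated, 3.82 and 3.61 TPM in LPS and 1.78 and 1.77 TPM in Met + LPS libraries, and the last change was -0.77 (adjusted p = 0.0013).

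The receptors behaved differently from each other. Tnfrsf1b (ENSMUSG00000028599, chr4:145213463-145246870, minus strand) was the most abundant of the 10 transcripts before stimulation, at 527 and 551 TPM, and was measured at 2324 and 2255 TPM after LPS and at 2319 and 2180 TPM in Met + LPS. Its log2 fold change after LPS was 2.09 (SE 0.043, adjusted p = 7.6e-08). The LPS and Met + LPS libraries overlapped, with a difference of -0.03 whose 95% interval ran from -0.13 to 0.08 (adjusted p = 0.648).

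Tnfrsf1a (ENSMUSG00000030341, chr6:125349362-125362484, plus strand) was measured at 212 and 219 TPM in untreated, 248 and 259 TPM in LPS and 207 and 204 TPM in Met + LPS libraries. The LPS libraries were the highest, by 0.23 on the log2 scale over untreated (SE 0.035, adjusted p = 7.3e-04) and by 0.76 with median-ratio scaling, and Met + LPS was lower than LPS by -0.30 (95% interval -0.39 to -0.22, adjusted p = 7.2e-04). Against untreated BMDMs the Met + LPS value of -0.07 did not pass (adjusted p = 0.110). Its sign and call depend on the scaling, since median-ratio scaling gave 0.47, which passed (adjusted p = 3.7e-05). The ratio of Tnfrsf1b to Tnfrsf1a TPM in a library does not depend on the scaling. It was 2.50 ± 0.026 (SD, n = 2) in untreated BMDMs, 9.03 ± 0.466 after LPS and 10.9 ± 0.385 in Met + LPS, with no overlap between groups.

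**Figure D1:**
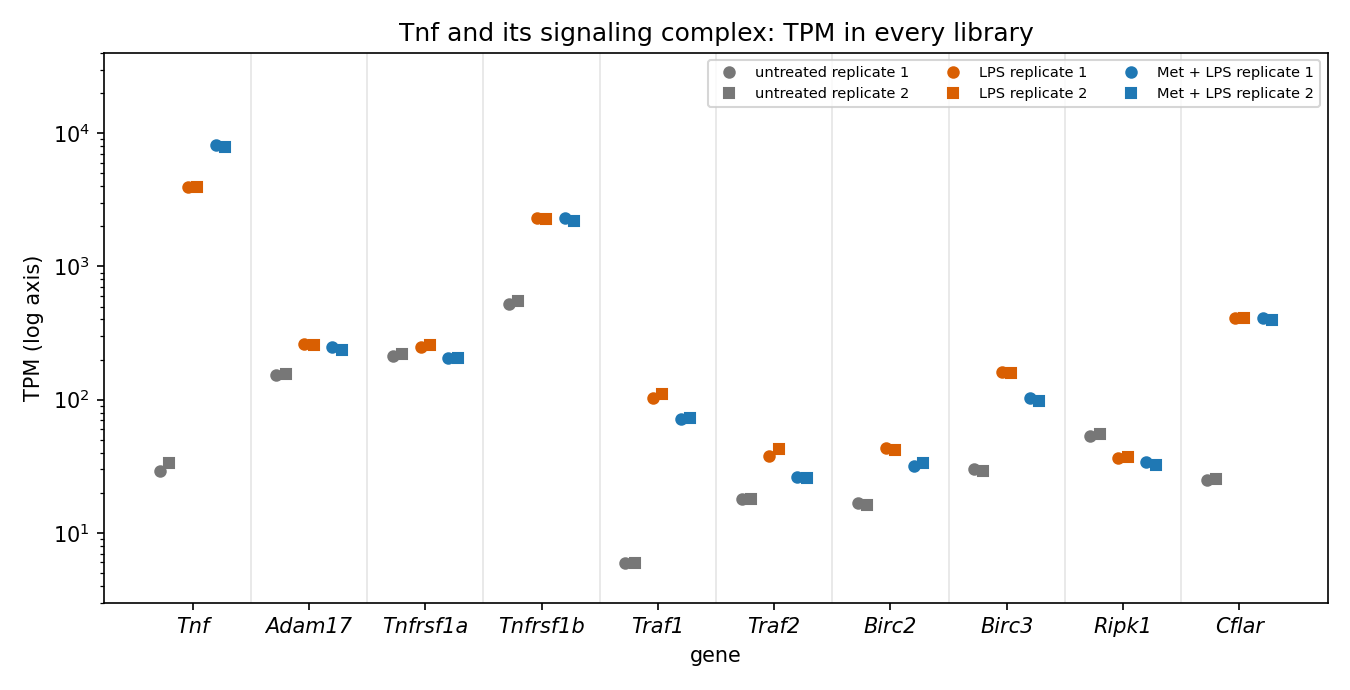
TPM on a log axis of each of the 10 genes (horizontal axis) in each library, with untreated in gray, LPS in orange and Met + LPS in blue, replicate 1 as circles and replicate 2 as squares. Tnf is the only gene whose Met + LPS libraries, at 8213 and 7925 TPM, lie clearly above its LPS libraries, at 3920 and 3914 TPM, while Traf1, Traf2, Birc2 and Birc3 lie between their untreated and LPS levels.

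The TRAF adaptors differed widely in level and response. Traf1 (ENSMUSG00000026875, chr2:34941750-34961772, minus strand), an adaptor without the RING domain of its relatives that binds TRAF2, was the scarcest member in untreated BMDMs, at 5.94 and 5.92 TPM. It reached 104 and 110 TPM after LPS and 72.1 and 72.4 TPM in Met + LPS. The LPS change was 3.96 (SE 0.044, adjusted p = 5.7e-09), 18.0 times the untreated mean in TPM, and with metformin it was lower by -0.56 (95% interval -0.66 to -0.45, adjusted p = 1.4e-04).

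Traf2 (ENSMUSG00000026942, chr2:25517982-25546940, minus strand), which carries the cIAP proteins to both receptors, was at 18.0 TPM in both untreated libraries, 38.1 and 42.4 TPM in the LPS libraries and 26.4 and 26.0 TPM in the Met + LPS libraries. It rose by 1.12 (SE 0.059, adjusted p = 4.8e-06), which is under the cut-off, and fell by 0.60 with metformin (95% interval -0.74 to -0.46, adjusted p = 3.5e-04). Both adaptors fell with metformin to a like extent. The ratio of Traf1 to Traf2 TPM was 0.330 ± 3.7e-04 (SD, n = 2) in untreated BMDMs and 2.66 ± 0.094 after LPS, and in Met + LPS it was 2.76 ± 0.040. The difference between the last 2 groups was near their spread, although their libraries did not overlap.

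The pair of cIAP ligases showed the same order of groups, with a larger response of Birc3. Birc3 (ENSMUSG00000032000, chr9:7848699-7873186, minus strand) was at 29.9 and 29.2 TPM in untreated, 162 and 159 TPM in LPS and 103 and 97.6 TPM in Met + LPS libraries. It rose by 2.40 after LPS (SE 0.041, adjusted p = 3.3e-08) and was lower with metformin by -0.67 (95% interval -0.77 to -0.57, adjusted p = 5.5e-05). That value is just inside the cut-off of 0.7, and without Met+LPS replicate 1 it was -0.71, which passes and raises the number of members called in this comparison from 1 to 2.

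Birc2 (ENSMUSG00000057367, chr9:7818227-7837064, minus strand) was at 16.8 and 16.2 TPM in untreated, 43.2 and 41.8 TPM in LPS and 31.7 and 33.7 TPM in Met + LPS libraries. It rose by 1.31 (SE 0.050, adjusted p = 1.2e-06) and was lower with metformin by -0.37 (95% interval -0.49 to -0.25, adjusted p = 0.0013), a call that was lost without LPS replicate 1 (-0.35, adjusted p = 0.011). The ratio of Birc3 to Birc2 TPM was 1.79 ± 0.010 (SD, n = 2) before stimulation, 3.78 ± 0.030 after LPS and 3.08 ± 0.248 in Met + LPS. Of the 31-base sequences of Birc3, 88.4% are its own, with Gm7019 as the main partner, and of those of Birc2 97.3% are its own, with Birc3 as the main partner, so that some reads of the pair are uncertain.

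Ripk1 (ENSMUSG00000021408, chr13:34002363-34037147, plus strand), the kinase that scaffolds the survival complex and can start cell death, was the only member lower after LPS, at 53.8 and 55.5 TPM in untreated, 36.2 and 36.9 TPM in LPS and 34.1 and 32.5 TPM in Met + LPS libraries. Its log2 fold change of -0.57 after LPS (SE 0.044, adjusted p = 2.7e-05) was close to the median of all tested genes, -0.48. With median-ratio scaling it was -0.05 and no longer passed (adjusted p = 0.334). The change with metformin was -0.13 (95% interval -0.24 to -0.03, adjusted p = 0.044). The exons of Ripk1 overlap 511 bases of Gm17084 on the same strand and 241 bases of the antisense gene Serpinb6a.

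Cflar (ENSMUSG00000026031, chr1:58711508-58758884, plus strand), the inhibitor of caspase-8, was at 25.0 and 25.3 TPM in untreated, 410 and 412 TPM in LPS and 407 and 394 TPM in Met + LPS libraries. It rose by 3.98 after LPS (SE 0.032, adjusted p = 1.8e-09), 16.3 times the untreated mean, and the difference with metformin was -0.04 (95% interval -0.12 to 0.04, adjusted p = 0.373). Of its 31-base sequences 90.7% are its own, with Gm9845 as the main partner.

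**Figure D2:**
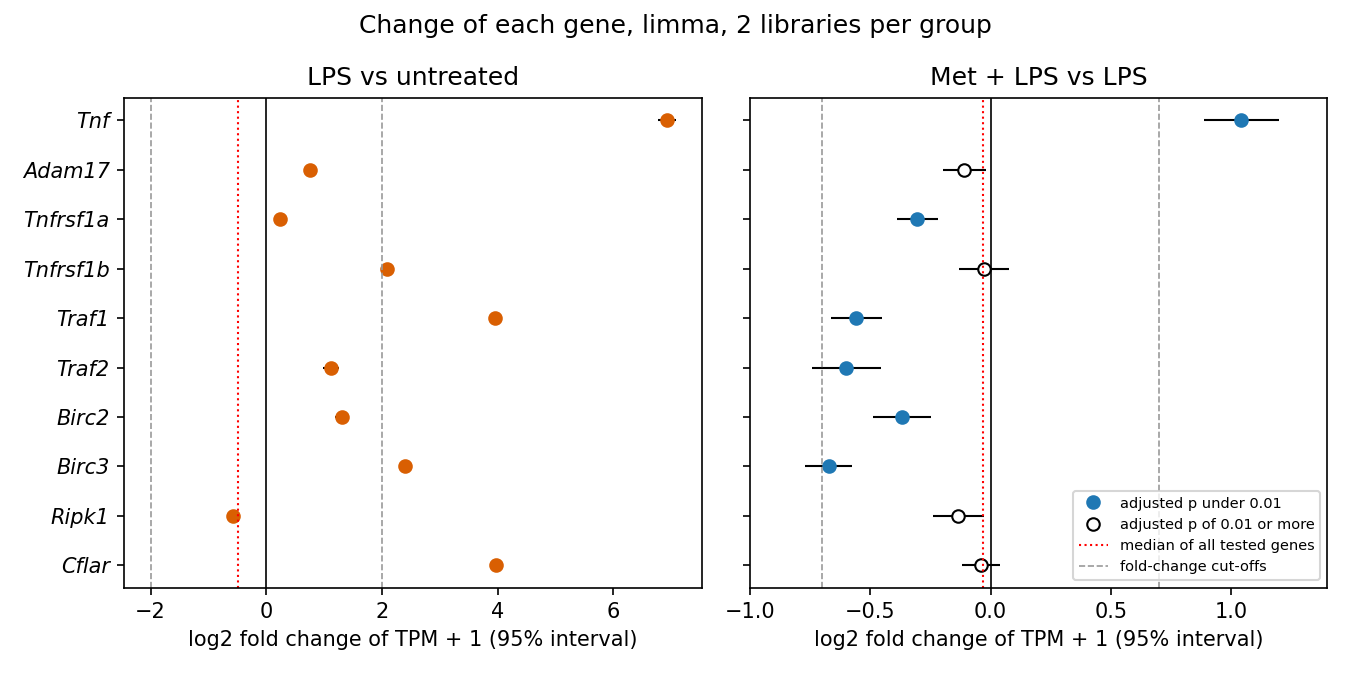
Log2 fold change of TPM + 1 with its 95% interval for each of the 10 genes, for LPS vs untreated (left) and Met + LPS vs LPS (right), with filled points at an adjusted p under 0.01, a dotted red line at the median of all tested genes (-0.48 and -0.03) and dashed lines at the cut-offs. On the left 9 genes are above 0, and on the right only Tnf is above 0, at 1.04.

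Counted over the 10 genes, LPS took 5 past the cut-offs, Tnf, Cflar, Traf1, Birc3 and Tnfrsf1b, all higher, where 3.72% of the tested genes were called higher, 2.37% lower and 6.08% in either direction. By the adjusted p alone 9 members were higher and 1 lower, against 16.2% and 60.1% of the tested genes. With median-ratio scaling those 5 passed the cut-offs again and Ripk1 was lost from the second count. Over all genes that scaling moved the calls past the cut-offs from 474 higher and 302 lower to 664 higher (5.21%) and 129 lower (1.01%), and the calls by the adjusted p alone to 30.6% higher and 27.6% lower. The members' median log2 fold change was 1.70, and 2.21 after that scaling. In all 10 genes the untreated and LPS libraries did not overlap, which was also the case for 91.6% of the tested genes.

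For Met + LPS vs LPS, Tnf was the only member past the cut-offs, where 4.19% of the tested genes were called higher, 4.09% lower and 8.28% in either direction. By the adjusted p alone 1 member was higher and 5 were lower, namely Birc3, Traf2, Traf1, Birc2 and Tnfrsf1a, against 14.5% and 18% of the tested genes, and 4 did not pass. The libraries did not overlap for 9 of the 10, against 73.8% of the tested genes. The members' median was -0.22, beside -0.03 over all tested genes.

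The comparison of Met + LPS with untreated BMDMs shares libraries with the other 2 comparisons and is given to place the levels. Tnf (7.97), Cflar (3.94), Traf1 (3.40) and Tnfrsf1b (2.06) were past a log2 fold change of 2, where 3.18% of the tested genes were called higher. Birc3, at 1.73, was below it (adjusted p = 1.8e-07), and with median-ratio scaling it was past it. Birc2 (0.94), Adam17 (0.65) and Traf2 (0.52) also remained higher than in untreated BMDMs by the adjusted p alone, as 16.3% of the tested genes did. Ripk1 was lower by -0.70 (adjusted p = 1.0e-05), as were 58.8% of the tested genes, and by -0.17 with median-ratio scaling, which did not pass (adjusted p = 0.011). The libraries did not overlap for all 10 members and for 90.7% of the tested genes.

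The part of the LPS response present in Met + LPS, taken as the log2 fold change over untreated of the one divided by that of the other, was 115% for Tnf, 99.0% for Cflar, 98.7% for Tnfrsf1b, 85.9% for Traf1 and 72.0% for Birc3. On the linear TPM scale the same quantity was 207% for Tnf, 97.2% for Cflar, 97.7% for Tnfrsf1b, 65.7% for Traf1 and 54.1% for Birc3. Median-ratio scaling gave log2 values of 114% for Tnf, 99.5% for Cflar, 99.5% for Tnfrsf1b, 87.7% for Traf1 and 77.4% for Birc3. The 5 strongest responders to LPS among the members therefore held a gain, 2 values near the full response and 2 partial ones. The LPS libraries that select these 5 also form the denominator, so that the percentages are not independent of the selection. As no group received metformin without LPS, an effect on the level before LPS cannot be told apart from one on the response.

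The order of the levels changed with the treatment. In untreated BMDMs it was Tnfrsf1b, Tnfrsf1a, Adam17, Ripk1, Tnf, Birc3, Cflar, Traf2, Birc2 and Traf1 from high to low, with overlapping libraries only for Tnf and Birc3. After LPS it was Tnf, Tnfrsf1b, Cflar, Adam17, Tnfrsf1a, Birc3, Traf1, Birc2, Traf2 and Ripk1, where Adam17 could not be ordered against Tnfrsf1a, nor Birc2 against Traf2. In Met + LPS it was the same down to Traf1, followed by Ripk1 and Birc2, whose libraries overlapped, and Traf2. The ratio of Tnf to Tnfrsf1b TPM went from 0.058 ± 0.0041 (SD, n = 2) to 1.71 ± 0.034 after LPS and 3.59 ± 0.066 in Met + LPS.

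**Figure D3:**
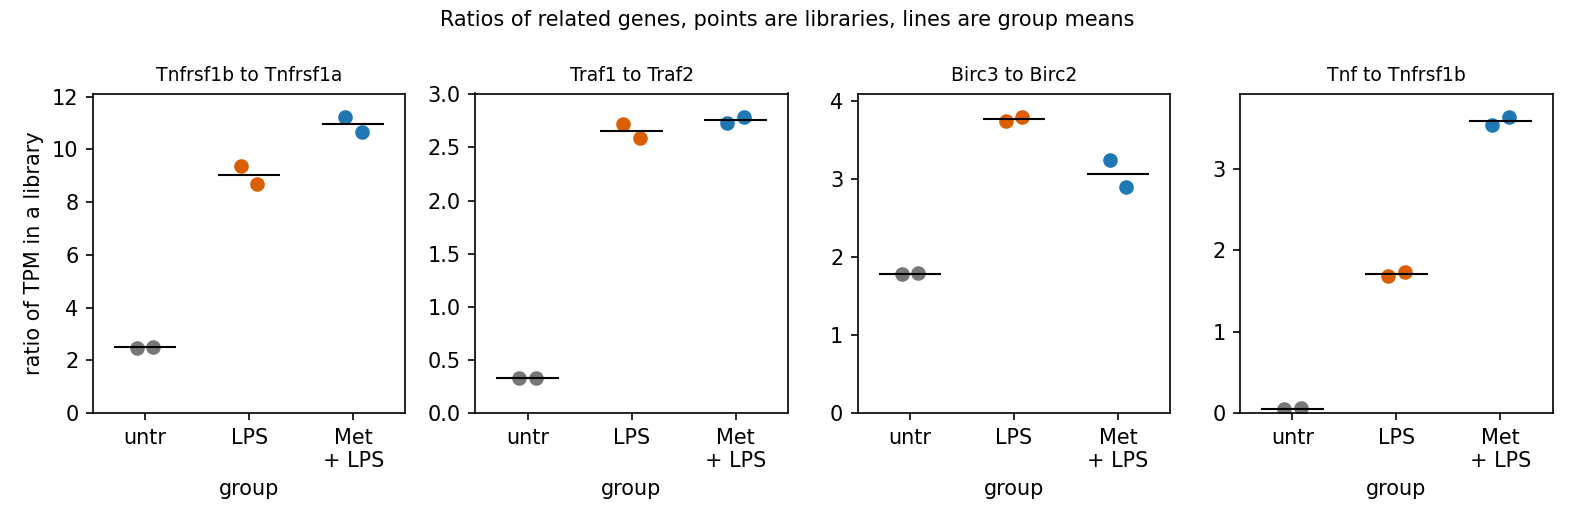
Ratios of TPM of related genes within a library (vertical axes, each from 0), with points as libraries and lines as group means. The ratio of Tnfrsf1b to Tnfrsf1a goes from 2.50 to 9.03 and 10.9, that of Traf1 to Traf2 from 0.330 to 2.66 and 2.76, that of Birc3 to Birc2 from 1.79 to 3.78 and 3.08, and that of Tnf to Tnfrsf1b from 0.058 to 1.71 and 3.59.

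The cells carried macrophage transcripts throughout. All 8 macrophage markers were above 1 TPM, and their summed level was 44620 and 46600 TPM in untreated, 37900 and 37410 TPM in LPS and 30880 and 30950 TPM in Met + LPS libraries. With metformin 6 of the 8 were lower by the adjusted p alone, against 18% of the tested genes. Their median change with metformin was -0.34, and Fcgr1, an IgG receptor, was the only one past the cut-offs (-1.14). The summed level of 7 neutrophil markers was 24.8 and 26.4 TPM in LPS and 42.7 and 41.1 TPM in Met + LPS libraries, with 3 of the 7, Ly6g, Camp and Ltf, under 1 TPM in every library, and none of the 4 tested markers passed in Met + LPS vs LPS. The sums of the B cell, stromal, erythroid and T and NK cell markers were at most 3.18 TPM in any library. Mitochondrial transcripts made up 4.05% to 4.54% of the TPM. The part of these differences in the changes of Tnf and its complex was not tested.

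The 5 tested genes with the pattern most like that of Tnf, by the Euclidean distance between log2(TPM + 1) values centered per gene over the 6 libraries, were Cxcl2, Rsad2, Il6, Tnfsf9 and Ifit1, at distances of 0.784, 0.892, 0.908, 0.922 and 0.951. Cxcl2, a neutrophil-attracting chemokine, went from 2.16 and 2.97 TPM in untreated to 558 and 574 TPM in LPS and 1570 and 1472 TPM in Met + LPS libraries, and its rise with metformin was 1.42 (adjusted p = 9.6e-05). The interferon-induced genes Rsad2 (0.17, adjusted p = 0.024) and Ifit1 (0.25, adjusted p = 6.8e-04), the cytokine Il6 (0.17, adjusted p = 0.089) and the TNF family ligand Tnfsf9 (0.35, adjusted p = 5.8e-04) changed less with metformin than Tnf did. This likeness is a description over 6 libraries in 3 groups, most of which is the shared difference between untreated and stimulated cells.

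The genes around the receptor complex were followed in lists drawn up by role. Genes called by the adjusted p alone, outside the cut-offs, are named below after their values were seen. The 6 other components at the receptor were the adaptors Tradd and Traf5, Xiap, and the 3 subunits of the linear ubiquitin ligase, Rnf31, Rbck1 and Sharpin. None passed the LPS cut-offs, beside 3.72% of the tested genes called higher and 2.37% lower. After LPS 16.2% of the tested genes were higher and 60.1% lower by the adjusted p alone. Among the 6 components Rnf31, the catalytic subunit, was higher by this measure, from 27.5 and 28.2 TPM to 89.9 and 95.5 TPM (1.70). Tradd (-0.82), Rbck1 (-0.51) and Sharpin (-0.51) were lower. With median-ratio scaling none of these 3 calls remained, with Tradd at -0.31 and Rbck1 and Sharpin at 0.009 and 0.005, and Rnf31, at 2.21, was past the cut-off. With metformin Rnf31 was lower by -0.55 (adjusted p = 2.0e-04) at 61.6 and 64.6 TPM, and Sharpin by -0.24 (adjusted p = 0.0045). The share of all tested genes lower with metformin by the adjusted p alone was 18%. The list's median was -0.34 after LPS and -0.12 with metformin, beside -0.48 and -0.03 over all tested genes.

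Of 10 kinases and kinase subunits below the receptor, 1 rose and 1 fell past the LPS cut-offs, against 3.72% and 2.37% of the tested genes. Mapkapk2, a kinase that stabilizes Tnf mRNA and promotes its translation, rose from 302 and 314 TPM to 1728 and 1683 TPM (2.47, adjusted p = 2.3e-08) and was at 1288 and 1226 TPM in Met + LPS, a difference of -0.44 (adjusted p = 2.3e-04). Tab1, a partner of the kinase TAK1, fell from 34.3 and 35.9 TPM to 5.16 and 5.06 TPM (-2.56, adjusted p = 1.3e-07) and was at 4.96 and 4.81 TPM in Met + LPS. By the adjusted p alone 4 were higher and 4 lower after LPS, against 16.2% and 60.1% of the tested genes, and with median-ratio scaling 7 and 3, against 30.6% and 27.6%. With metformin none passed the cut-offs, against 8.28% of the tested genes in either direction. Ikbkg (0.47) and Chuk (0.34) were higher by the adjusted p alone, as were 14.5% of the tested genes. Tab2 (-0.46), Mapkapk2 and Ikbkb (-0.33) were lower by it, as were 18%.

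Of the 7 deubiquitinases and ubiquitin-binding proteins that restrain the pathway, 2 rose past the LPS cut-offs, against 3.72% of the tested genes. Tnfaip3, which encodes A20, rose from 13.7 and 13.6 TPM to 1435 and 1423 TPM (6.61, adjusted p = 9.4e-10), close to the response of Tnf, and Tnip1, which binds A20, rose from 116 and 119 TPM to 539 and 538 TPM (2.18, adjusted p = 1.8e-08). With metformin both were lower, Tnfaip3 at 1202 and 1143 TPM (-0.29, adjusted p = 8.5e-04) and Tnip1 at 426 and 414 TPM (-0.36, adjusted p = 2.4e-04). Tnip2 (-0.36) was also lower, while Tax1bp1 was higher by 0.61 (adjusted p = 5.6e-05). These calls are by the adjusted p alone, by which 18% of the tested genes were lower and 14.5% higher. None of the 7 passed the cut-offs with metformin, against 8.28% of the tested genes. The list's median was 0.16 after LPS and -0.23 with metformin, beside -0.48 and -0.03 over all tested genes.

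The NF-κB subunits and their inhibitors moved the most as a list, with 7 of 8 past the LPS cut-offs, all higher, against 3.72% of the tested genes, and a median of 2.66. The largest changes were those of Nfkbia (4.75), Nfkbie (4.40), Nfkb2 (3.15) and Rel (2.77). Nfkbia, which encodes the inhibitor IκBα, went from 99.2 and 99.6 TPM to 2633 and 2764 TPM. Rela, at 1.12, passed by the adjusted p alone. With metformin none passed the cut-offs and 5 were lower by the adjusted p alone, against 18% of the tested genes, from -0.39 for Nfkbie to -0.18 for Nfkbia, and 4 of these with median-ratio scaling, where Nfkbia was lost (adjusted p = 0.012). The list's median with metformin was -0.23.

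Of the 4 genes of the death-inducing complex, none passed the cut-offs in either comparison, beside 6.08% of the tested genes after LPS and 8.28% with metformin. Median-ratio scaling took Mlkl past them after LPS, at 2.07, where 5.21% of the tested genes were called higher. Mlkl, which executes necroptosis, was higher after LPS by the adjusted p alone, from 25.4 and 27.8 TPM to 77.4 and 82.9 TPM (1.56, adjusted p = 1.9e-06). Fadd, at -0.90, and Ripk3, at -0.37, were lower. The shares of all tested genes were 16.2% higher and 60.1% lower by this measure. Under median-ratio scaling Fadd still passed, at -0.42, but Ripk3 was at 0.13. With metformin Ripk3 was lower by -0.57 (adjusted p = 3.8e-04), at 12.7 and 12.6 TPM against 18.6 and 19.7 TPM. Casp8 was lower by -0.37 (adjusted p = 9.2e-04), while Fadd and Mlkl did not pass. The share of all tested genes lower by the adjusted p alone was 18%. Of the other TRAF genes 3 of 4 were tested and none passed the cut-offs. Traf3, which with TRAF2 and the cIAP proteins restrains the noncanonical NF-κB kinase, was the only one of them past the adjusted p with metformin. It was higher by 0.51 (adjusted p = 2.5e-04), from 32.5 and 32.8 TPM to 47.8 and 45.8 TPM, as 14.5% of the tested genes were.

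**Figure D4:**
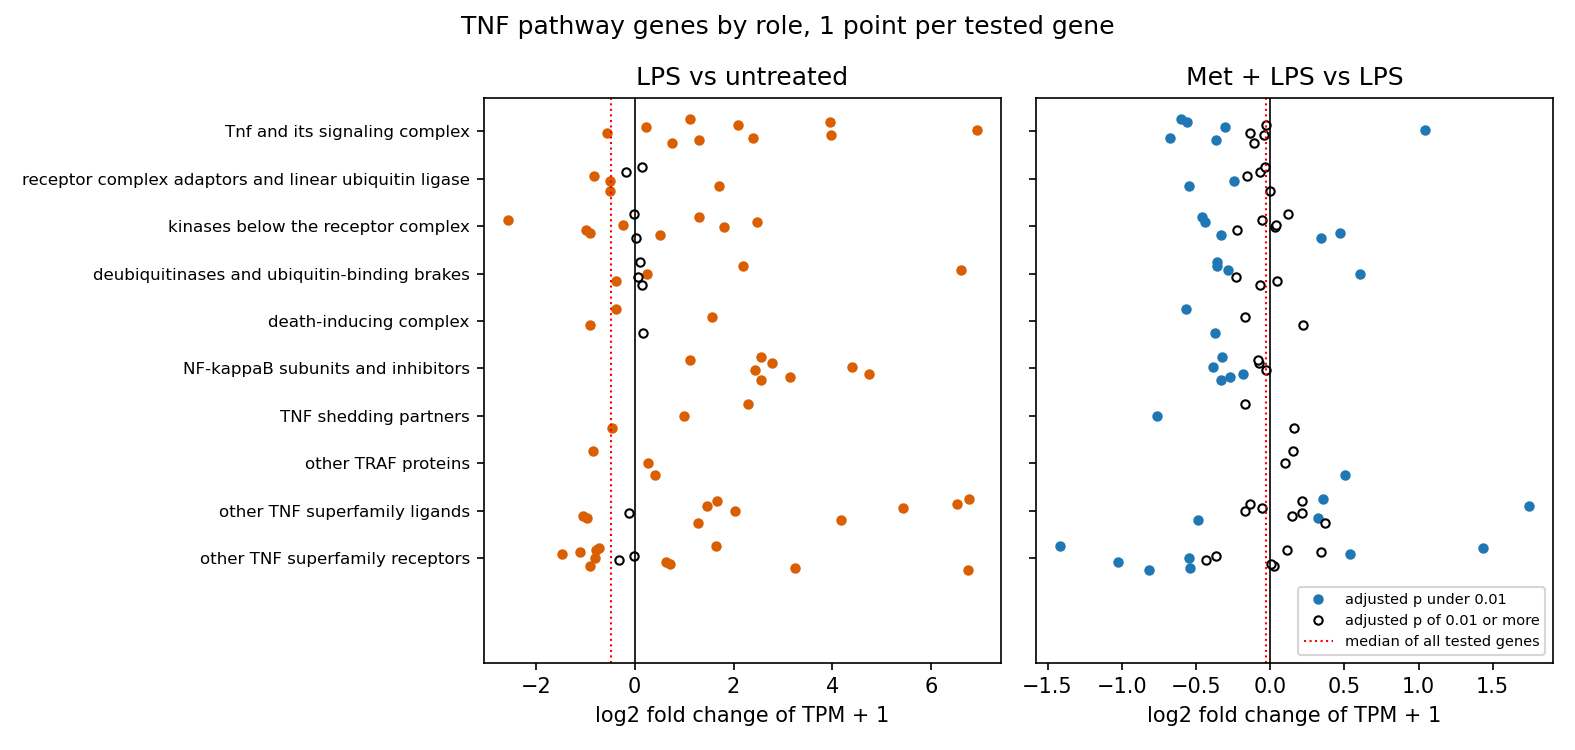
Log2 fold change of TPM + 1 of every tested gene of the 10 members (top row) and of 9 lists by role, for LPS vs untreated (left) and Met + LPS vs LPS (right), with filled points at an adjusted p under 0.01 and a dotted red line at the median of all tested genes. The NF-κB subunits and inhibitors are all above 0 after LPS with a median of 2.66, and on the right most of the rows above the 2 lowest lie between -0.8 and 0.7, with Tnf at 1.04.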

How the data were processed

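RNA was enriched by poly-A pull-down and sequenced as single-end reads in 6 libraries. The authors aligned the reads to GRCm38 with STAR 2.6.1d, counted them with featureCounts (Subread 1.6.3, Ensembl annotation release 94, SAMtools 1.9 also named) and deposited TPM per gene, each library summing to the same total, with replicates not pooled. Their count test, DESeq2, was not used here, because TPM are not counts.

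A gene was tested if 2 or more libraries reached 1 TPM (12755 genes). The values, log2(TPM + 1), went into limma 3.58.1 (R 4.3.3; lmFit, then eBayes with a trend) without covariates. All 6 libraries shared the fit, and p-values were adjusted by Benjamini-Hochberg over the 12755 genes. Fold changes on this scale come out too small for weakly expressed genes. The study's cut-offs on the log2 fold change were 2 for LPS vs untreated, used here for Met + LPS vs untreated as well, and 0.7 for Met + LPS vs LPS, with an adjusted p under 0.01. Where only the adjusted p was used, this is said. TPM times the GENCODE exon length was a whole multiple, within 0.02 read, of a common step for 96.1% to 96.3% of the values of a library, and these multiples, taken as reads, served for limma voom. Intervals cover the spread between libraries.

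The members and lists were chosen with earlier results of these data known. Named genes are the 10 members, up to 4 genes a list with the largest changes past the cut-offs of each comparison, and the 5 genes nearest to Tnf. The alternatives were another pseudocount (0.1), filters (none, 5 TPM), median-ratio scaling, fits of 2 groups only, a replicate block, an untrended prior, other cut-offs, voom, and leaving out each library. A group left with 1 library was taken to vary like the others. The test was checked on simulated data. Gene IDs matched GENCODE for 54495 of 54532 genes. Promoter sequences are from RefSeq, and the share of a gene's 31-base sequences found in no other gene was taken over GENCODE transcripts. Tables were made in Python 3.11.15.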

Additional observations from a re-analysis of the deposited data

How the results depend on the processing

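The numbers of members past the cut-offs were 5 after LPS, 1 with metformin and 4 in Met + LPS vs untreated. Of the tested genes 6.08%, 8.28% and 5.35% passed in either direction. With no fold-change cut-off the members became 10, 6 and 9, beside 76.3%, 32.6% and 75.1% of the tested genes. At a log2 cut-off of 1 they were 7, 1 and 5, for which no share over all genes was computed. Leaving out each library in turn gave 5 in every case for LPS, 1 to 2 with metformin and 4 in every case for Met + LPS vs untreated. Among 450 refitted log2 fold changes of single members, 443 kept their direction and their side of the adjusted p of 0.01, 4 lost that call and 3 changed sign. Among the 443, Birc3 gained the fold-change cut-off without Met+LPS replicate 1 with metformin (-0.71), and in Met + LPS vs untreated with median-ratio scaling of TPM (2.26) and of reads in voom (2.30). The 3 that changed sign were Tnfrsf1b with metformin without Met+LPS replicate 2 (from -0.071 to 0.018 over the libraries left out) and Tnfrsf1a in Met + LPS vs untreated with median-ratio scaling of TPM (0.47) and of recovered reads in voom (0.47). Tnfrsf1a then also passed the adjusted p of 0.01 as higher, at 3.7e-05 in limma and 3.2e-09 in voom. Many of the refits could not change a direction. The filters, untrended prior, replicate block, fits of 2 groups and leaving out a library of the third group kept the fold change as it was. In these only the adjusted p could move. The change of Tnf with metformin ranged from 1.02 to 1.07 over 15 alternatives, with adjusted p-values up to 0.0014. Same-numbered libraries did not deviate together (correlations of -0.004, 0.028 and 0.006 over 12755 genes). These values show no strong shift shared by number. They cannot say whether same-numbered libraries came from the same mouse or culture, which the labels do not give. A fit with the replicate number as a block called 5, 1 and 4 members.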

Other observations

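Other ligands of the TNF superfamily, 16 genes of which 11 were tested, included 5 that rose past the LPS cut-offs, where 3.72% of the tested genes were called higher. By the adjusted p alone 8 were higher and 2 lower after LPS, against 16.2% and 60.1%, and those lower were Tnfsf12 (-0.97) and Tnfsf13 (-1.03), which with median-ratio scaling were at -0.45 and -0.54. The 5 past the cut-offs were Tnfsf9, from 11.0 and 11.3 TPM to 1290 and 1322 TPM (6.75), Tnfsf4, from 0.286 and 0.076 TPM to 104 and 110 TPM (6.52), Tnfsf15 (5.42), Tnfsf10 (4.17) and Tnfsf14 (2.03), the last of these named after its value was seen. With metformin 1 of the 11 passed the cut-offs, where 4.19% of the tested genes were called higher and 8.28% in either direction. It was Tnfsf18, which encodes the ligand of GITR, at 0.382 and 0.068 TPM in untreated, 2.67 and 2.06 TPM in LPS and 9.41 and 11.1 TPM in Met + LPS libraries (1.74, adjusted p = 3.3e-04). By the adjusted p alone Tnfsf9 (0.35) and Tnfsf12 (0.32) were also higher and Tnfsf10 (-0.48) was lower with metformin, as 14.5% and 18% of the tested genes were.

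Of 18 other receptors of the superfamily, 13 were tested, and 2 rose past the LPS cut-offs and none fell, against 3.72% and 2.37% of the tested genes. These were Cd40, from 5.83 and 5.29 TPM to 707 and 699 TPM (6.75), and Fas, from 4.67 and 5.12 TPM to 55.5 and 53.8 TPM (3.24). By the adjusted p alone 5 were higher and 6 lower after LPS, against 16.2% and 60.1%. With median-ratio scaling these were 6 and 6, against 30.6% and 27.6%. The list's median after LPS was -0.31, beside -0.48 over all tested genes. With metformin 1 was higher and 3 were lower past the cut-offs, where 4.19% and 4.09% of the tested genes were called. Cd40, the costimulatory receptor that also recruits TRAF proteins, was lower at 396 and 403 TPM (-0.81, adjusted p = 4.3e-05). Tnfrsf11a, the receptor RANK, went from 100.4 and 99.5 TPM in LPS to 50.4 and 46.9 TPM in Met + LPS (-1.03, adjusted p = 2.0e-05), below its untreated level of 63.3 and 65.0 TPM. Tnfrsf9 was at 3.33 and 2.01 TPM in LPS and 0.292 and 0.415 TPM in Met + LPS (-1.42, adjusted p = 0.0018). Tnfrsf26 was the one higher, from 13.8 and 14.1 TPM in LPS to 40.6 and 38.4 TPM in Met + LPS (1.44, adjusted p = 9.6e-06).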
